A study of Mus musculus with 12 samples.

Results

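The comparison described here is how the response to doxycycline (Dox) differed at day 7 between rtTA-Dmrt5 cells and their parental rtTA cells: the change from arrays labelled -Dox to arrays labelled +Dox in rtTA-Dmrt5, minus the same change in rtTA. It was formed from 8 day 7 arrays of a series of 12 and covers every probe set with a single gene symbol, 34945 of 45101 in the deposited table, which represent 18193 genes. For each gene only the brightest probe sets were averaged, by a rough reading of their level, and its dimmer ones do not enter. Both lines are mouse embryonic stem (ES) cells, grown as a monolayer in N2B27 medium so that they turn into neural progenitors. The 4 groups were rtTA without Dox, rtTA with Dox, rtTA-Dmrt5 without Dox and rtTA-Dmrt5 with Dox, each with 2 arrays; Dox was given from day 5 and RNA was taken at day 7. Dox was thus present for the last days of culture only. The 4 day 9 arrays, all of rtTA-Dmrt5, entered no group mean of the comparison. They entered only the estimate of the spread, the rough reading of level and the centring of the values. What the groups share is the rtTA activator, while the tetracycline-inducible Dmrt5 is named only for rtTA-Dmrt5, which the labels describe as a single line. Nothing in the labels says that the 2 replicates of a group were separate cultures, and the p-values reflect only how far these arrays scatter, which may be technical.

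Dmrt5, whose gene symbol is Dmrta2, is a transcription factor with a DM domain, a zinc finger that binds DNA and is shared with the sex determination factors doublesex and mab-3. In the mouse embryo it acts in the progenitors of the dorsal telencephalon, including the cortical hem, and of the ventral midbrain. In a Tet-On system the rtTA protein binds its promoter and switches the transgene on only when Dox is present, so that the line with rtTA alone measures what Dox and rtTA do without the transgene. The difference between the lines removes whatever Dox does equally in both.

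The deposited values are on a log2 scale and are centred per probe set, so 0 marks the median of the 12 arrays for each probe set. They carry differences between arrays, and no gene's value can be set against another gene's. Of a gene's level only a rough class can be read, from the spacing of the numbers. A difference is called more negative where the change with Dox was lower in rtTA-Dmrt5 than in rtTA, and more positive where it was higher. Adjusted p-values come from limma with Benjamini-Hochberg adjustment over all 18193 genes, and a gene passed at an adjusted p of 0.05. Errors after ± are standard errors from that fit, with 2 arrays per group. The median standard error of a difference between lines was 0.18.

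Control probe sets were compared in the same way as genes. Hybridisation spike-ins, added after amplification, were lower with Dox by about the same amount in both lines, with changes of -0.29 in rtTA and -0.32 in rtTA-Dmrt5 and a difference of -0.04. The amplification controls differed by -0.10. The 3′ minus 5′ signal of Actb, a gauge of RNA length, ran from -0.37 to -0.20 in the 4 rtTA arrays and from -0.13 to 0.07 in the 4 rtTA-Dmrt5 arrays. Its change with Dox differed between the lines by -0.20, and that of Gapdh by -0.11. The part of RNA length in the results was not tested.

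The gene that the transgene should raise came first. The probe set for Dmrta2 read -0.22 and 0.14 in rtTA without Dox and 0.41 and -0.28 with Dox. In rtTA-Dmrt5 it read 1.91 and 1.85 without Dox and -0.14 and -0.95 with Dox. The rtTA-Dmrt5 arrays labelled -Dox were thus the highest of the 8 and those labelled +Dox lay among or below the rtTA arrays, so that this probe set went against the direction of the labels. Where the probe set lies relative to the sequence carried by the transgene is not known from the labels or the table, and if it lies outside, it checks nothing about the transgene. Groups are therefore called by their labels, and every direction given for rtTA-Dmrt5 rests on those labels. The difference between lines in Dmrta2 was -2.52 ± 0.47 (adjusted p = 0.0208), with a parental change of 0.10 ± 0.33. Dmrta2 lost the call when any 1 of 5 arrays was left out (adjusted p up to 0.0769): rtTA -Dox array 1, rtTA +Dox array 1, either rtTA-Dmrt5 -Dox array and rtTA-Dmrt5 +Dox array 2.

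Of 8 measured members of the Dmrt family, 4 passed in the difference between lines, Dmrta2 and 3 others, all more negative, against 2.84% of all genes in either direction. Their median difference was -1.03, where the median over all genes was 0.00. Dmrta1, the closest relative of Dmrta2, read -0.26 and 0.03 in rtTA without Dox, 0.49 and -0.03 with Dox, 1.41 and 2.03 in rtTA-Dmrt5 without Dox and -0.74 and -0.80 with Dox. The rtTA-Dmrt5 arrays lay above the rtTA arrays without Dox and below them with Dox, and the difference was -2.84 ± 0.30 (7.16-fold, adjusted p = 0.0013). Dmrt1, a factor of the testis, differed by -1.73 ± 0.17 and Dmrt3, which is made in the dorsal telencephalon and spinal cord, by -1.36 ± 0.28. Dmrt3 lost the call without any 1 of 6 arrays, all but the rtTA +Dox arrays (adjusted p up to 0.131), and its 4 probe sets ranged from -1.68 to -0.01. Dmrt2, which acts in somites, had a difference of 0.20 ± 0.42 and did not pass, nor did Dmrtb1 (-0.70 ± 0.24), Dmrtc1a (-0.41 ± 0.23) or Dmrtc2 (-0.42 ± 0.23).

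Windows around gene starts were searched for ACATTGT, the core of the sequence that DM domains bind, on both strands (the other strand reads ACAATGT). The windows are RefSeq promoters of 300 bases, 250 before and 50 after the start, on build GRCm38.p6, and 70 of 102 genes described here had one. Of these, 3 held the motif: Dmrta2, Olig2 and Kcnq5. The windows of Dmrta2 and Olig2, which passed, are shown because they carry the motif, written in capitals. Dmrta2 lies on the plus strand at chr4:109977775-109978074, with the motif beginning 55 bases before the start, and Olig2 on the plus strand at chr16:91225300-91225599, 69 bases before it.
Dmrta2: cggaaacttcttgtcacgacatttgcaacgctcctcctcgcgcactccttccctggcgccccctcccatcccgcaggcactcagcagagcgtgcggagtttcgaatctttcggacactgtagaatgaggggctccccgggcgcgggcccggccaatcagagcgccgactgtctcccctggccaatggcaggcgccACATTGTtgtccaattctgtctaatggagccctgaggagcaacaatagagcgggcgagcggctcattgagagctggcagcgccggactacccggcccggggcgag
Olig2: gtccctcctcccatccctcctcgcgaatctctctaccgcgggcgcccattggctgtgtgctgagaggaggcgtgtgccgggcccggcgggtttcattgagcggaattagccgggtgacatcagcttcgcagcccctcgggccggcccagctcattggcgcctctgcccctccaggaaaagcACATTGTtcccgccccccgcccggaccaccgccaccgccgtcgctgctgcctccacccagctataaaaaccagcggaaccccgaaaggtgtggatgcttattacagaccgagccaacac
The motif was in 2.34% of the 14452 tested genes with a window and in 2.96% of all 32851 windows. Among genes that passed it was in 5 of 379, or 1.32%: Dmrta2, Olig2, Sfxn3 and Srgap3, more negative, and Atp2b2, more positive. The motif's share among genes that passed was thus not above that of all genes tested. A match is a description of the letters only.

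Over all 18193 genes, 516 passed in the difference between lines (2.84%), 156 of them more positive (0.857%) and 360 more negative (1.98%). A difference of at least 2-fold was seen in 303, of which 224 were more negative, and at least 4-fold in 34 more negative and 10 more positive genes. In all 516 genes each +Dox minus -Dox difference of array pairs in a line lay beyond each of the other line's, which was so in 34.3% of all genes. Fewer genes passed in each fit without 1 array. Each of the 516 genes kept its direction in all 8 of these fits, which the separation of their array pairs fixes in advance. Genes of the dimmest classes passed least often: 2.84% of genes with a median log2 level of at least 8, 4.29% at 4 to 8, 0.757% at 2 to 4 and 0.216% under 2. The difference came mostly from rtTA-Dmrt5. In the 516 genes the parental change had quartiles of -0.07 and 0.19, against -0.08 and 0.11 over all genes, and it reached 2-fold in 3 of the 516.

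**Figure D1:**
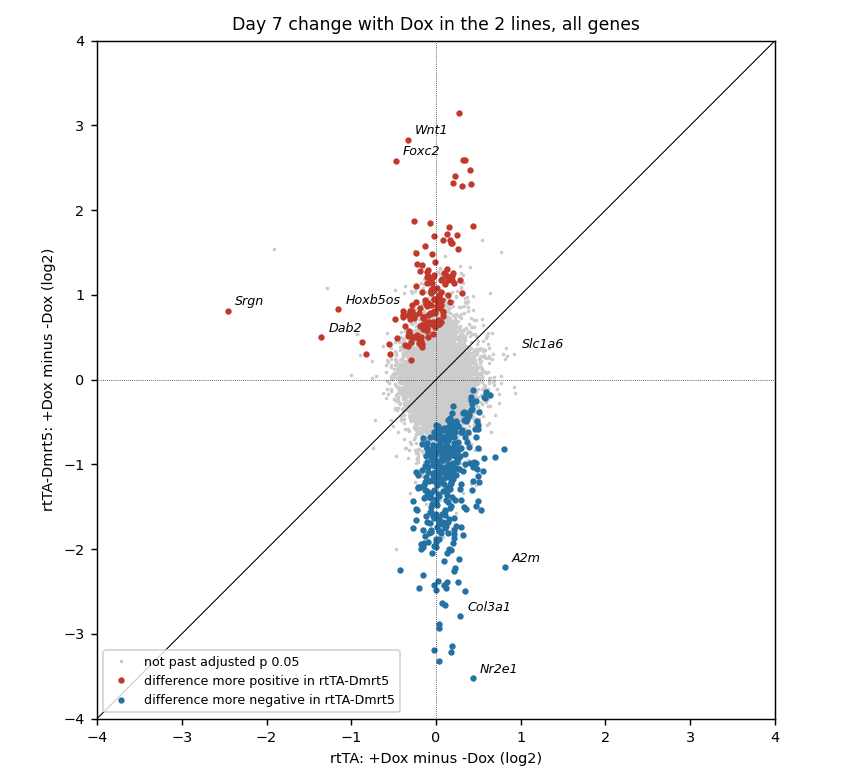
Change with Dox (log2, +Dox minus -Dox) in rtTA on the horizontal axis and in rtTA-Dmrt5 on the vertical axis for all 18193 genes, with 156 genes more positive in rtTA-Dmrt5 in red, 360 more negative in blue and a diagonal line where both changes are equal. The coloured points spread along the vertical axis, and Srgn, Dab2 and Hoxb5os are the coloured points farthest to the left, with parental changes of -2.46, -1.36 and -1.16.

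The 2 arms of the difference share their arrays with it and are given side by side. In rtTA-Dmrt5, 1262 genes passed between -Dox and +Dox (6.94%), 561 higher and 701 lower. This split depends on the scaling: when the arrays were shifted to equal hybridisation spike-ins, 2853 genes were higher and 299 lower. The median change of all genes went from 0.011 to 0.298 in rtTA and from 0.013 to 0.335 in rtTA-Dmrt5. The median difference between lines went only from 0.001 to 0.037, and with that shift 125 genes were more positive and 253 more negative. In rtTA, 0 genes passed (0.0%).

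Of the 29 lists, chosen with earlier results of these data known, that of forebrain and cortical progenitor factors had most members past the threshold. Of 17 measured, 9 were more negative (52.9%) and 0 more positive, against 1.98% and 0.857% of all genes. The median difference was -0.81 and the median parental change 0.10. Nr2e1, an orphan nuclear receptor that keeps forebrain neural stem cells dividing, had the most negative difference of all genes that passed. It read -0.15 and -0.35 in rtTA without Dox, 0.15 and 0.21 with Dox, 1.71 and 1.99 in rtTA-Dmrt5 without Dox and -1.61 and -1.74 with Dox. The rtTA-Dmrt5 arrays were the highest without Dox and the lowest with it, and the difference was -3.96 ± 0.35 (15.5-fold, adjusted p = 0.000589). Nr2e1 has a dimmer probe set, in a lower level class, whose difference was -0.01. In these bulk samples, fewer cells of a type and less RNA per cell cannot be told apart.

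Other forebrain factors differed in where the lines stood apart. Otx1, a homeobox factor of the forebrain and midbrain, read -0.08 and -0.05, then 0.35 and 0.04 in rtTA, and 2.40 and 2.14, then -0.04 and -0.20 in rtTA-Dmrt5, without and with Dox. The lines were apart without Dox (2.33) and close with it (-0.32), and the difference was -2.65 ± 0.23 (adjusted p = 0.000589). Nr2f1, also called COUP-TFI, which patterns cortical areas, showed the reverse order. Its arrays lay within -0.04 and 0.07 in the 3 other groups and at -1.79 and -2.18 in rtTA-Dmrt5 with Dox, for a difference of -1.97 ± 0.17 (adjusted p = 0.000589). Its relative Nr2f2 differed by -1.27 ± 0.23. Lhx2, a selector gene of cortical identity, differed by -1.80 ± 0.30, and Emx2, a cortical patterning factor, by -0.88 ± 0.20. In both, rtTA-Dmrt5 was above rtTA without Dox (1.09 and 1.52). With Dox it was below rtTA in Lhx2 (-0.71) and still above it in Emx2 (0.64). Fezf1 and Six3, made at the anterior end of the neural plate, differed by -1.48 ± 0.22 and -0.97 ± 0.21, and Lhx9 by -0.80 ± 0.17. Pax6, with -0.81 ± 0.24, and Otx2, with -0.55 ± 0.13, did not pass. Neither did the cortical neuron factors Tbr1 (-0.50 ± 0.37) and Bcl11b (0.90 ± 0.32).

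Nr2e1, Otx1, Nr2f1 and Fezf1 kept the call whichever array was left out. Lhx2 lost it without rtTA-Dmrt5 -Dox array 2 or +Dox array 2 (adjusted p up to 0.0594). Emx2, Lhx9, Nr2f2 and Six3 each lost it without any 1 of 7 arrays, with adjusted p up to 0.169, 0.15, 0.0769 and 0.148. The array whose omission kept their call was rtTA-Dmrt5 +Dox array 1 for Emx2, rtTA +Dox array 2 for Lhx9, rtTA -Dox array 1 for Nr2f2 and rtTA-Dmrt5 -Dox array 1 for Six3. The 3 probe sets of Six3 ranged from -2.38 to 0.26. The spike-in shift took the call from Emx2, Lhx9 and Six3.

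**Figure D2:**
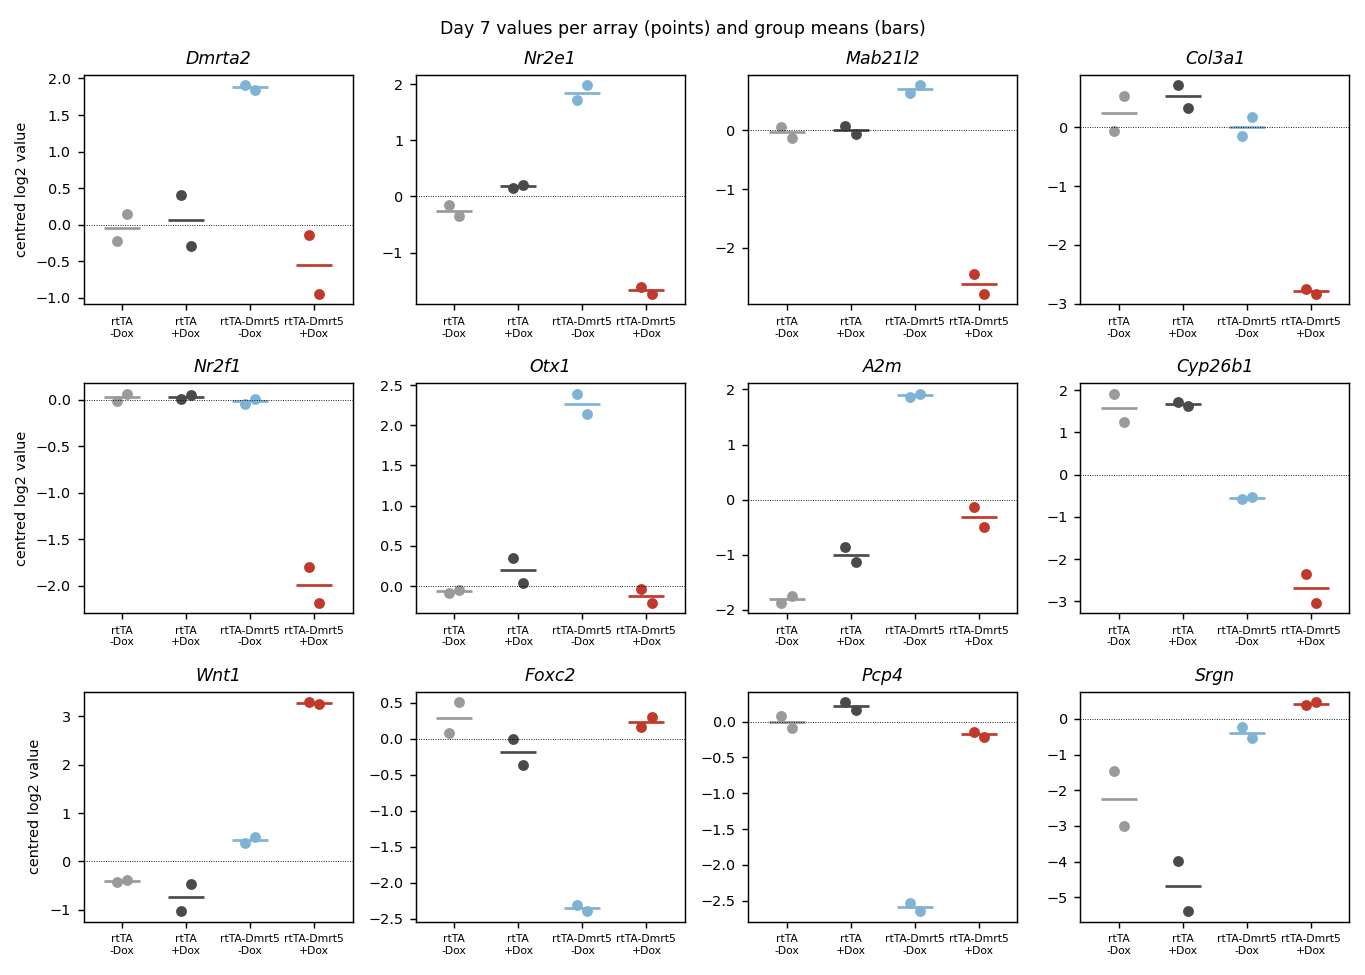
Centred log2 value (vertical axis, a separate scale per panel, 0 being the median over 12 arrays) of 12 genes on the 8 day 7 arrays, each point an array and each bar the mean of 2 arrays, by line and Dox label. In Nr2f1 and Col3a1 only rtTA-Dmrt5 with Dox stands apart, in Otx1 and Pcp4 only rtTA-Dmrt5 without Dox, and in Srgn the rtTA arrays run from -1.47 to -5.38.

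Eye field and lens factors split in direction. Of 12 measured, 4 were more negative and 2 more positive, against 1.98% and 0.857% of all genes. The median difference was -0.16. Mab21l2, needed for the early eye, read 0.06 and -0.13, then 0.07 and -0.06 in rtTA, and 0.64 and 0.77, then -2.45 and -2.79 in rtTA-Dmrt5, without and with Dox. The difference of -3.36 ± 0.20 (10.3-fold, adjusted p = 0.000212) came almost wholly from rtTA-Dmrt5, since the parental change was 0.04. Its paralog Mab21l1, a gene of lens and eye development, differed by -3.17 ± 0.30 (adjusted p = 0.000763). The list also holds Lhx2 and Six3. Rax, the homeobox gene that opens the retinal and hypothalamic programme, went the other way: it read between -0.31 and 0.02 in the 6 other arrays and 1.10 and 0.99 in rtTA-Dmrt5 with Dox, a difference of 1.38 ± 0.17 (adjusted p = 0.00256). Maf, a factor of lens fibres, differed by 1.11 ± 0.18, with 6 probe sets from -0.18 to 1.80. Maf lost the call without rtTA -Dox array 2, rtTA-Dmrt5 -Dox array 1 or rtTA-Dmrt5 +Dox array 1 (adjusted p up to 0.0558).

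Factors of the ventral telencephalon and its interneurons gave 5 more negative and 0 more positive genes among 14. This was 35.7% of the list, against 2.84% of all genes, and the median difference was -0.61. Gsx1, a homeobox gene of the ganglionic eminences, read 0.46, 0.13, 0.62 and 0.23 in the rtTA arrays, -0.08 and -0.06 in rtTA-Dmrt5 without Dox and -2.10 and -2.81 with Dox. Only the last group stood apart, and the difference was -2.51 ± 0.46 (adjusted p = 0.0206). Isl1, a LIM homeobox factor of striatal and motor neurons, differed by -1.82 ± 0.36. Ebf1 differed by -1.37 ± 0.17, Sp8 by -1.06 ± 0.17 and Gad2, an enzyme that makes the transmitter GABA, by -1.15 ± 0.20. In Gad2 part of the difference lay in rtTA, with a parental change of 0.47 beside -0.68 in rtTA-Dmrt5. The Dlx genes, which specify interneurons, did not pass, with differences such as -0.83 ± 0.48 in Dlx2 and 0.23 ± 0.28 in Dlx6. Ebf1 kept the call in every fit without 1 array. Gsx1, Isl1, Sp8 and Gad2 lost it without any 1 of 5, 4, 3 and 4 arrays (adjusted p up to 0.0781, 0.108, 0.0595 and 0.058), and rtTA-Dmrt5 +Dox array 2 was among these for all 4 genes.

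Among genes of neurons in general, more passed in the negative than in the positive direction. Of 18 pan-neuronal genes, 7 were more negative and 1 more positive (44.4% past the threshold, against 2.84% of all genes). Of the 18, 16 had a difference below 0, with a median of -0.66 and a median parental change of 0.00. The neurofilament gene Nefl read 0.39 and 0.23, then 0.36 and 0.29 in rtTA, and -0.14 and -0.10, then -1.31 and -1.38 in rtTA-Dmrt5. Its difference was -1.24 ± 0.12 (adjusted p = 0.000861). The neurofilament genes Nefm and Ina differed by -1.61 ± 0.28 and -1.02 ± 0.14, the tubulin gene Tubb3 by -0.70 ± 0.14, the microtubule regulator Stmn2 by -0.85 ± 0.12 and the RNA-binding protein gene Elavl3 by -0.84 ± 0.19. Nhlh1, a basic helix-loop-helix factor of newly born neurons, differed by -1.71 ± 0.19 (adjusted p = 0.00168). Myt1l was the member that passed in the other direction, by 1.10 ± 0.21, with 5 probe sets from -0.11 to 1.67. Among 12 proneural factors, which commit progenitors to a neuronal fate, 2 passed (16.7%) and 11 lay below 0, with a median of -0.75. Those that passed were Neurod4 (-1.29 ± 0.26) and Ebf2 (-0.91 ± 0.18), while Neurog1, at -1.17 ± 0.32, did not. Th, which encodes the enzyme that sets the pace of dopamine synthesis, read -0.97, -0.82, -0.65 and -1.07 in the rtTA arrays, 0.99 and 0.71 in rtTA-Dmrt5 without Dox and -0.63 and -1.25 with Dox, a difference of -1.82 ± 0.30 (adjusted p = 0.0129).

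Nefl, Ina, Stmn2 and Nhlh1 kept the call in every fit without 1 array, and Th lost it only without rtTA-Dmrt5 -Dox array 1 (adjusted p = 0.0529). Nefm lost it without rtTA -Dox array 2 or either rtTA-Dmrt5 -Dox array (adjusted p up to 0.0628). Tubb3, Elavl3 and Ebf2 lost it without any 1 of 7 arrays, Myt1l of 6 and Neurod4 of 5, with adjusted p up to 0.118, 0.162, 0.106, 0.106 and 0.114. The omissions that kept the call were rtTA -Dox array 1 for Tubb3, rtTA-Dmrt5 +Dox array 1 for Elavl3 and rtTA +Dox array 2 for Ebf2. The spike-in shift took the call from Tubb3, Stmn2, Ina, Elavl3 and Ebf2.

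The midbrain-hindbrain boundary is a signalling centre whose cells make Wnt1 and Fgf proteins and whose surroundings make the engrailed factors. Its list had the largest share past the threshold: 8 of 13 genes, or 61.5%, against 2.84% of all genes. The lists were chosen with earlier results of these data known, so this rank is a description only. Of the 8 genes, 5 were more positive and 3 more negative, and the median difference of the list was 0.27. Wnt1, the secreted ligand of the boundary and the roof plate, read -0.43 and -0.39 in rtTA without Dox, -1.03 and -0.46 with Dox, 0.39 and 0.50 in rtTA-Dmrt5 without Dox and 3.30 and 3.25 with Dox. The rtTA-Dmrt5 arrays with Dox stood far above the 6 others, and the difference was 3.16 ± 0.34 (8.95-fold, adjusted p = 0.00135), with a parental change of -0.33. Fgf18, a ligand of the same region, read -0.03, 0.16, -0.01 and 0.01 in rtTA, -1.65 and -1.44 in rtTA-Dmrt5 without Dox and 0.30 and 0.33 with Dox. Here the lines were apart without Dox (-1.61) and close with it (0.31), with a difference of 1.92 ± 0.20 (adjusted p = 0.00126). Fgf15 differed by 0.83 ± 0.13, while Fgf8, the organiser's main ligand, with 0.15 ± 0.18, and Fgf17, with 0.59 ± 0.21, did not pass.

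The paralogous engrailed genes passed in opposite directions. En1 read between -0.36 and -0.01 in the 6 other arrays and 1.23 and 1.04 in rtTA-Dmrt5 with Dox, a difference of 1.28 ± 0.18 (adjusted p = 0.00543). En2 read 0.14 and -0.35, then 0.04 and 0.05 in rtTA, and 0.61 and 0.31, then -1.54 and -1.52 in rtTA-Dmrt5, a difference of -2.15 ± 0.23 (adjusted p = 0.00115). Gbx2, which marks the hindbrain side of the boundary, differed by -1.17 ± 0.26 and Cnpy1, an Fgf signalling protein of the boundary, by -0.98 ± 0.19. Sp5, a direct target of Wnt signalling, differed by 1.72 ± 0.26 (adjusted p = 0.0088). Wnt1, Fgf18, En1, En2 and Sp5 kept the call in every fit without 1 array. Fgf15 lost it without rtTA-Dmrt5 -Dox array 2 or +Dox array 2 (adjusted p up to 0.055), Gbx2 without any 1 of 6 arrays (up to 0.156) and Cnpy1 without any 1 of 7, all but rtTA -Dox array 1 (up to 0.108). The spike-in shift took the call from Fgf15 and Cnpy1.

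Wnt targets and regulators passed in both directions. Of 14, 3 were more positive and 1 more negative (28.6% past the threshold, against 2.84% of all genes). The median difference was 0.27. Notum, a secreted enzyme that inactivates Wnt ligands and is itself a Wnt target, read -0.17 and -0.25, then -0.31 and -0.41 in rtTA, and 0.17 and 0.19, then 0.91 and 0.93 in rtTA-Dmrt5. Its difference was 0.89 ± 0.11 (adjusted p = 0.00319). The list also counts Sp5. Wif1, a secreted Wnt inhibitor, differed by 0.98 ± 0.21 and Sfrp2, a secreted Wnt-binding protein, by -0.96 ± 0.17. Wif1 is dim, with a median log2 level of 2 to 4. The common target Axin2 had a difference of -0.01 ± 0.37 and Lef1 of 0.40 ± 0.35, and neither passed. Of the R-spondins, which strengthen Wnt signals at the cell surface, Rspo2 and Rspo3 were more negative and Rspo1, at 0.12 ± 0.24, did not pass. Rspo3 read -0.06, -0.11, 0.01 and 0.08 in rtTA, 1.77 and 1.88 in rtTA-Dmrt5 without Dox and -0.20 and -0.23 with Dox, a difference of -2.18 ± 0.15 (adjusted p = 0.000212). Rspo2 differed by -1.71 ± 0.26. Wif1 and Sfrp2 lost the call without any 1 of 6 arrays (adjusted p up to 0.156 and 0.0625), of which rtTA -Dox array 2, rtTA +Dox array 1, both rtTA-Dmrt5 -Dox arrays and rtTA-Dmrt5 +Dox array 2 are common to both. The spike-in shift took it from Notum and Sfrp2.

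The list of the cortical hem and roof plate, the dorsal midline that makes Wnt and Bmp ligands, had a median difference of -0.01. In it, 4 of 18 were more negative and 1 more positive (27.8% past the threshold, against 2.84% of all genes). Besides Rspo2 and Rspo3 these were Zic1 (-1.79 ± 0.26), a zinc finger factor of the dorsal neural tube, Wnt7b (-1.10 ± 0.22) and, in the other direction, Bmp7 (0.99 ± 0.15). Zic1 read between -0.23 and 0.21 in rtTA, 1.51 and 1.62 in rtTA-Dmrt5 without Dox and -0.03 and -0.25 with Dox, so that the lines met in the arrays with Dox. Lmx1a (0.74 ± 0.49), Wnt3a (-0.22 ± 0.17) and Msx1 (-0.15 ± 0.15), genes that define the hem or roof plate, did not pass. Bmp7 lost the call without rtTA-Dmrt5 -Dox array 2 (adjusted p = 0.0528), and Wnt7b without any 1 of 7 arrays, all but rtTA +Dox array 2 (up to 0.105).

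In the ventral midbrain lists, 2 of 15 floor plate genes and 4 of 14 ventral-lateral midbrain genes were more negative and 0 more positive. These were 13.3% and 28.6% of the lists, against 2.84% of all genes, and the median differences were 0.06 and -0.36. Olig2, a basic helix-loop-helix factor of ventral progenitors and of the oligodendrocyte lineage, and 1 of the genes with the motif in its promoter window, read -1.16 and -0.73, then -0.49 and -1.10 in rtTA, and 1.54 and 1.26, then -0.35 and -0.21 in rtTA-Dmrt5. The difference was -1.83 ± 0.28 (adjusted p = 0.01), and the neighbouring relative Olig1 differed by -0.88 ± 0.16. Olig1 is dim, with a median log2 level of 2 to 4. Pou4f1, a factor of red nucleus neurons, differed by -1.11 ± 0.19, and the axon guidance protein gene Slit2 by -0.87 ± 0.17. Foxa2, with 0.96 ± 0.27, and Shh, with -1.06 ± 0.26, the floor plate's defining factor and ligand, did not pass. Olig2 kept the call in every fit without 1 array, while Olig1, Pou4f1 and Slit2 lost it without any 1 of 5, 5 and 6 arrays (adjusted p up to 0.0849, 0.0633 and 0.104), rtTA-Dmrt5 -Dox array 2 among them for all 3. The spike-in shift took it from Olig1 and Slit2.

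Of the Fgf, Shh and retinoic acid lists, 20.0%, 33.3% and 30.0% of members passed, against 2.84% of all genes. Of 10 genes induced by Fgf signalling, most of them its inhibitors and some its transcription factors, 2 were more negative: Dusp6 and Dusp4, which encode phosphatases that dampen the pathway. Dusp6 read 1.41, 1.53, 1.16 and 1.56 in rtTA, 0.37 and 0.30 in rtTA-Dmrt5 without Dox and -1.46 and -1.23 with Dox, a difference of -1.58 ± 0.22 (adjusted p = 0.00548). The lines did not overlap in either condition. Dusp4 differed by -0.95 ± 0.17, and Etv4, with -0.77 ± 0.20, and the Spry genes did not pass. Of 9 Shh genes, the co-receptor genes Cdon (1.03 ± 0.14) and Boc (-0.69 ± 0.13) passed in opposite directions and the target Gli1 passed at 0.86 ± 0.19, while the targets Ptch1 (-0.12 ± 0.12) and Hhip (0.49 ± 0.22) did not. Dusp6 and Cdon kept the call in every fit without 1 array. Dusp4 lost it without any 1 of 5 arrays and Gli1 and Boc without any 1 of 7 (adjusted p up to 0.0731, 0.154 and 0.107), and the spike-in shift took it from all 3.

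Retinoic acid, a signal made by Aldh1a enzymes and broken down by Cyp26 enzymes, gave 2 more positive and 1 more negative gene of 10. Cyp26b1 read 1.92, 1.24, 1.73 and 1.62 in rtTA, -0.57 and -0.52 in rtTA-Dmrt5 without Dox and -2.35 and -3.02 with Dox, a difference of -2.24 ± 0.35 (adjusted p = 0.0106). The enzyme of synthesis Aldh1a2 read 1.82, 2.46, 1.93 and 1.98 in rtTA, -1.09 and -0.84 in rtTA-Dmrt5 without Dox and 0.55 and 0.08 with Dox, a difference of 1.46 ± 0.30 (adjusted p = 0.0361). Both genes were lower in rtTA-Dmrt5 than in rtTA in either condition, and the distance between lines grew with Dox for Cyp26b1 and shrank for Aldh1a2. Stra6, the membrane receptor that takes up retinol, differed by 0.98 ± 0.22. Aldh1a2 and Stra6 each lost the call without any 1 of 6 arrays (adjusted p up to 0.115 and 0.172), among them rtTA -Dox array 2, rtTA +Dox array 1, both rtTA-Dmrt5 -Dox arrays and rtTA-Dmrt5 +Dox array 1, and Cyp26b1 kept it.

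**Figure D3:**
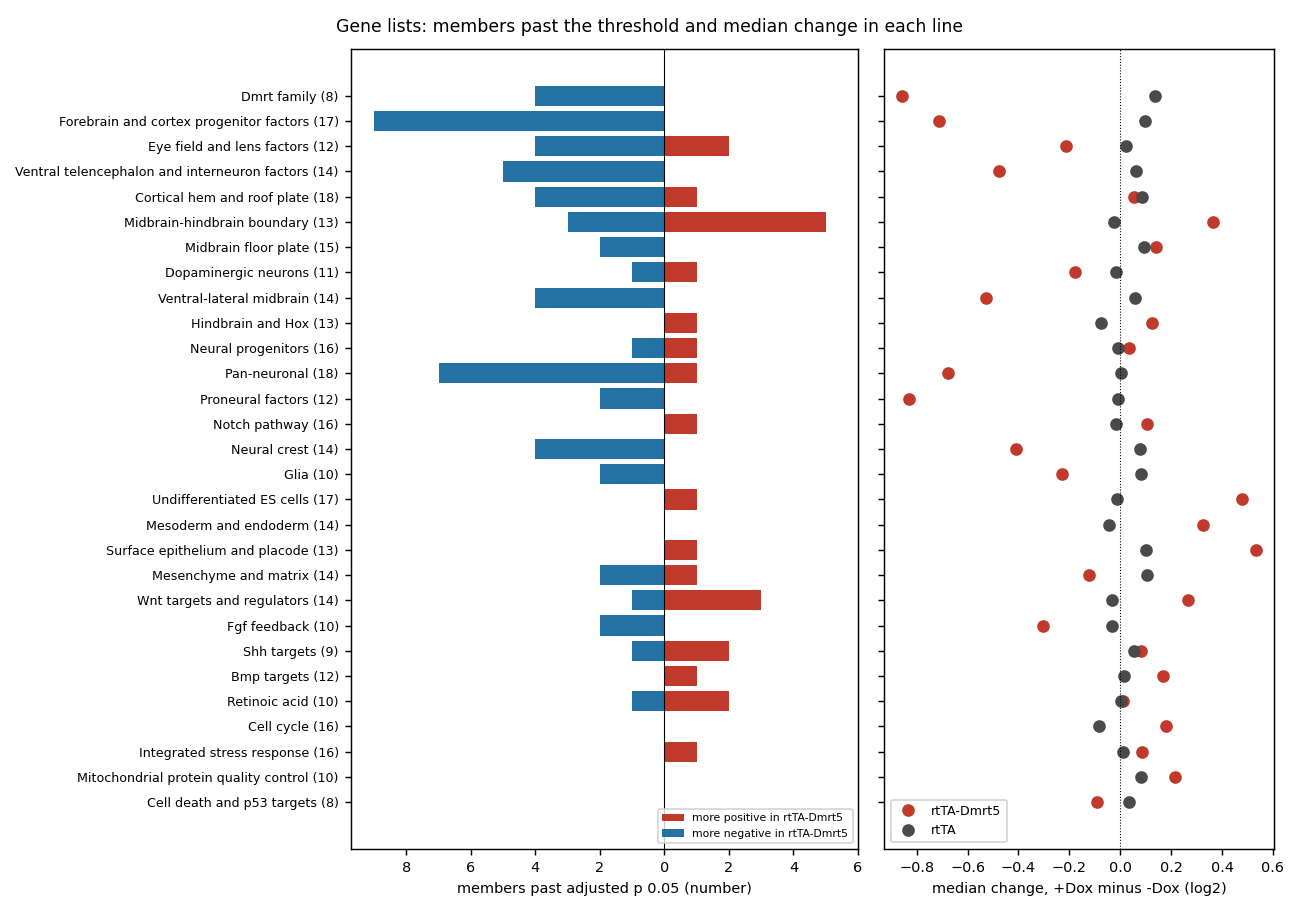
Left, the number of members of 29 gene lists past adjusted p 0.05 in the difference between lines, more negative in blue to the left and more positive in red to the right, with the number measured in parentheses; right, the median change with Dox (log2) of each list in rtTA-Dmrt5 (red) and rtTA (grey). Forebrain factors have 9 members to the left and 0 to the right, the boundary list has 5 to the right and 3 to the left, and the rtTA medians lie between -0.08 and 0.14.

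For markers of other cell types that such cultures can hold, 0.0% to 28.6% of a list passed, against 2.84% of all genes. Neural crest markers gave 4 more negative of 14: Pax3 (-1.75 ± 0.15), Pax7 (-1.13 ± 0.15), Tfap2b (-1.34 ± 0.17) and Zic1. These factors are also made in the dorsal neural tube, and the crest-defining Sox10 (-0.48 ± 0.22) and Foxd3 (-0.83 ± 0.33) did not pass. Pax3 read between -0.03 and 0.05 in rtTA, 0.15 and 0.23 in rtTA-Dmrt5 without Dox and -1.40 and -1.70 with Dox. The glial list passed only through Olig1 and Olig2, with Gfap at -0.46 ± 0.17 and Aqp4 at -0.14 ± 0.15. The 16 neural progenitor markers, 15 of them bright (median log2 level of at least 8), had a median difference of 0.02, and the defining markers Sox1 (0.18 ± 0.21), Sox2 (-0.57 ± 0.15) and Nes (0.32 ± 0.18) did not pass. Those that did are both made by radial glia: Fabp7 (-1.62 ± 0.14) and Slc1a3 (1.26 ± 0.16), whose 6 probe sets ranged from -0.29 to 1.92.

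Of 17 markers of undifferentiated ES cells, 14 lay above 0, with a median of 0.46, and only Zfp42 passed (0.97 ± 0.21). The mean of the list was 0.59 to 0.69 in the 4 rtTA arrays, -0.83 and -0.76 in rtTA-Dmrt5 without Dox and -0.38 and -0.34 with Dox, so the rtTA arrays were above rtTA-Dmrt5 throughout. Pou5f1 and Nanog had differences of 0.65 ± 0.23 and 0.59 ± 0.21. Of 14 mesoderm and endoderm markers 0 passed, with a median of 0.55 and list means of -0.57 to -0.22 in rtTA, -0.16 and -0.10 in rtTA-Dmrt5 without Dox and 0.20 and 0.33 with Dox. Surface epithelium and placode markers had a median of 0.34, list means of -0.53 to -0.25 in rtTA, -0.17 and -0.07 in rtTA-Dmrt5 without Dox and 0.39 and 0.44 with Dox, and 1 of 13 that passed, Eya1 (1.04 ± 0.22). The means of these 3 lists were thus higher in the rtTA-Dmrt5 arrays with Dox than in those without, the same arrays in which many neuronal and forebrain genes were lower, and their part in those results was not tested. In the order given, 5.88%, 0.0% and 7.69% of the 3 lists passed, against 2.84% of all genes. Centred values cannot show whether a marker is near 0. Zfp42 and Eya1 lost the call without any 1 of 7 arrays (adjusted p up to 0.147 and 0.152), all but rtTA +Dox array 1 for Zfp42 and rtTA-Dmrt5 +Dox array 2 for Eya1.

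Of 14 mesenchyme and matrix genes, 2 were more negative and 1 more positive (21.4% past the threshold, against 2.84% of all genes). Col3a1, a fibrillar collagen, read -0.07, 0.53, 0.71 and 0.33 in rtTA, -0.16 and 0.17 in rtTA-Dmrt5 without Dox and -2.74 and -2.83 with Dox. Only the last group stood apart, with a difference of -3.08 ± 0.34 (8.46-fold, adjusted p = 0.00139). Col1a2 differed by -1.30 ± 0.23 and lost the call without any 1 of 4 arrays (adjusted p up to 0.0769): rtTA -Dox array 1, rtTA +Dox array 1, rtTA-Dmrt5 -Dox array 2 and rtTA-Dmrt5 +Dox array 2. Foxc2, a forkhead factor of mesenchyme, read 0.07 and 0.51, then -0.01 and -0.36 in rtTA, and -2.31 and -2.40, then 0.17 and 0.30 in rtTA-Dmrt5. The lines were apart without Dox (-2.64) and close with it (0.42), and the difference was 3.06 ± 0.22 (8.35-fold, adjusted p = 0.000212). Its paralog Foxc1, at -0.46 ± 0.26, did not pass, nor did Prrx1 (0.84 ± 0.25) or Pdgfra (0.49 ± 0.14).

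Among the genes with the largest differences, several belong to no list. On the negative side, Ndnf, a secreted neurotrophic factor, differed by -2.97 ± 0.21, Pdzph1 by -2.93 ± 0.22 and Adgrv1, a very large adhesion receptor of sensory hair cells, by -2.71 ± 0.20. In these 3 genes the lines differed without Dox by -0.38, -0.47 and -0.21 and with Dox by -3.35, -3.40 and -2.93. Wfdc1, which encodes a secreted protein of the protease inhibitor type, and the predicted gene Gm20083 differed by -3.33 ± 0.21 and -3.40 ± 0.23. In both, rtTA-Dmrt5 was above rtTA without Dox (2.28 and 1.32) and below it with Dox (-1.05 and -2.07). Tfap2d, an AP-2 factor of the midbrain and retina, differed by -2.77 ± 0.36 and Glra1, a glycine receptor subunit, by -2.58 ± 0.31. Ndnf, Adgrv1 and Glra1 each have a probe set in a lower level class, with differences of -0.17, -0.13 and -0.63.

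On the positive side, Pcp4, a calmodulin-binding protein of Purkinje and other neurons, read 0.08, -0.09, 0.27 and 0.16 in rtTA, -2.53 and -2.64 in rtTA-Dmrt5 without Dox and -0.14 and -0.22 with Dox. The difference of 2.19 ± 0.18 (4.56-fold, adjusted p = 0.000507) left rtTA-Dmrt5 at -0.39 from rtTA with Dox. The opposite order held in the sodium channel gene Scn11a (2.25 ± 0.26), the transcription factor gene Hlf (2.11 ± 0.21), the small GTPase gene Rab37 (1.89 ± 0.19) and Krtap17-1 (1.97 ± 0.21). In these the lines were 0.08 to 0.72 apart without Dox and 1.98 to 2.98 with it. Scn11a and Krtap17-1 are dim, with a median log2 level of 2 to 4. The predicted gene Gm3764 differed by 2.88 ± 0.26, with 3 probe sets from -0.20 to 2.88, and Defa31, a member of a family of near-identical defensin genes whose probes may not tell them apart, by 2.28 ± 0.36. The matrix and surface protein genes Nepn and Islr differed by 2.14 ± 0.45 and 2.06 ± 0.36. Nepn lost the call without any 1 of 7 arrays, all but rtTA -Dox array 2 (adjusted p up to 0.137), and Islr without rtTA +Dox array 2, rtTA-Dmrt5 -Dox array 2 or rtTA-Dmrt5 +Dox array 1 (up to 0.0708). Of the 15 most negative and 15 most positive genes, 25 kept the call whichever array was left out.

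**Figure D4:**
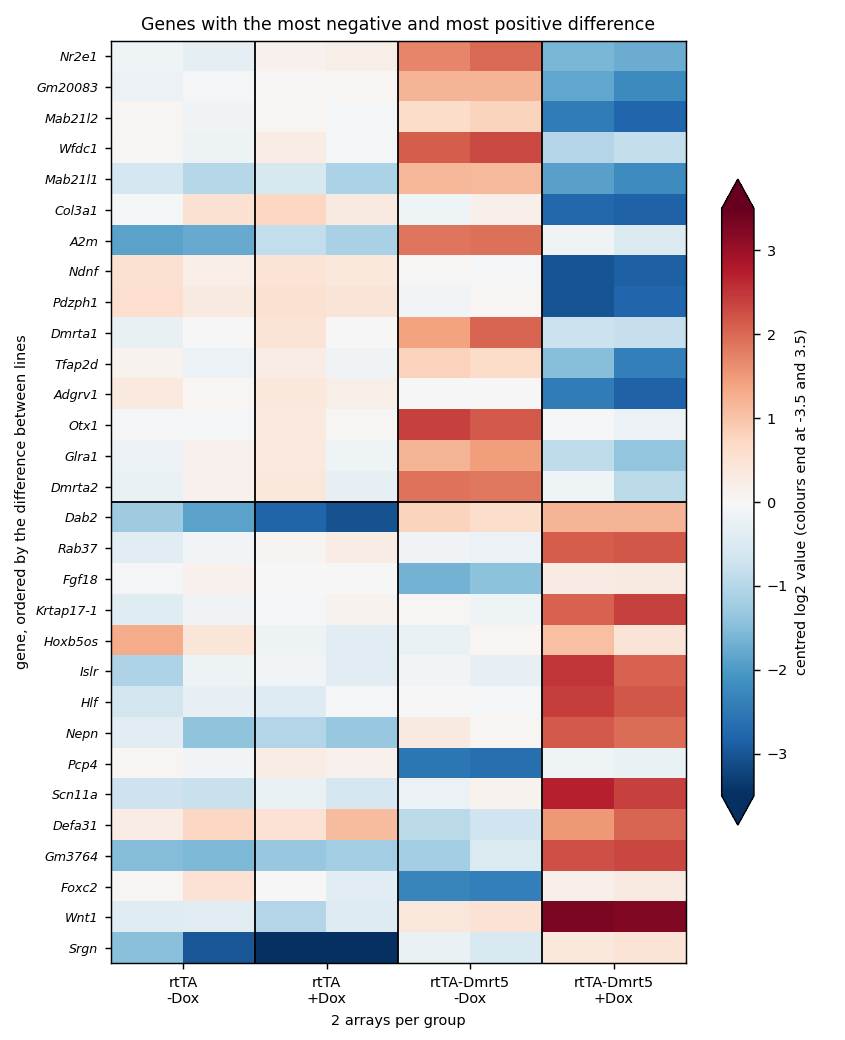
Centred log2 value (colour, blue low and red high, ending at -3.5 and 3.5) of the 15 genes with the most negative difference, upper block, and the 15 with the most positive, lower block, on the 8 day 7 arrays in columns. The rtTA columns are pale for most genes, and Srgn and Dab2 are the genes whose rtTA arrays are most clearly darker blue with Dox than without.

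In a few genes the parental line carried much of the difference. Srgn, the core protein of secretory granule proteoglycans, read -1.47 and -2.99 in rtTA without Dox, -3.99 and -5.38 with Dox, -0.23 and -0.55 in rtTA-Dmrt5 without Dox and 0.38 and 0.47 with Dox. Its difference of 3.27 ± 0.69 (adjusted p = 0.0391) was made of a parental change of -2.46 and an rtTA-Dmrt5 change of 0.81, neither of which passed by itself. Dab2, an endocytic adaptor, read -1.24 and -1.88, then -2.79 and -3.04 in rtTA, and 0.78 and 0.61, then 1.19 and 1.20 in rtTA-Dmrt5. Its difference of 1.85 ± 0.26 (adjusted p = 0.00549) joined a parental change of -1.36 to 0.50 in rtTA-Dmrt5, and its 4 probe sets ranged from 0.38 to 1.85. Dab2 and Srgn are both abundant in extraembryonic endoderm. The endoderm gene Ttr had the same order without passing, with a difference of 3.46 ± 0.84 (adjusted p = 0.0625) and a parental change of -1.92, while the parental changes of the endoderm factors Gata4, Gata6 and Sox17 were 0.18, 0.00 and -0.59. In the mesoderm and endoderm list the parental change ranged from -1.92 to 0.18, with a median of -0.05, and its part in Srgn and Dab2 was not tested.

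The parental change was also a large part of the difference in Hoxb5os (1.99 ± 0.40, parental -1.16), the somite factor Meox1 (1.31 ± 0.23, parental -0.87) and the coagulation receptor tissue factor, F3 (1.13 ± 0.24, parental -0.83). F3 read -3.32 and -3.78, then -4.16 and -4.58 in rtTA and between 0.28 and 0.70 in the 4 rtTA-Dmrt5 arrays. The line difference in F3 of 3.90 without Dox was thus larger than its Dox response in either line. A2m, a protease inhibitor, had a parental change of 0.81, which did not pass, and an rtTA-Dmrt5 change of -2.21, for a difference of -3.02 ± 0.22 (adjusted p = 0.000212). It read -1.87 and -1.75, then -0.87 and -1.13 in rtTA, and 1.87 and 1.93, then -0.13 and -0.50 in rtTA-Dmrt5. Dab2 and A2m kept the call in every fit without 1 array. Srgn, Meox1 and F3 lost it without any 1 of 6 arrays, all but rtTA -Dox array 2 and rtTA +Dox array 1 (adjusted p up to 0.137, 0.0673 and 0.144), and Hoxb5os without any 1 of 6, all but rtTA -Dox array 2 and rtTA-Dmrt5 +Dox array 2 (up to 0.103).

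The parental response as a whole was the drug control, and Dox is known as an inhibitor of mitochondrial translation at high doses. In limma's fit 0 of 18193 genes passed between rtTA -Dox and rtTA +Dox, and 929 had an unadjusted p under 0.05, where 910 are expected if no gene changed. The smallest adjusted p was 0.249. With 2 arrays per group the fit had a median 95% confidence half-width of 0.29 for a parental change, before any adjustment over genes. Larger changes did not pass either: 160 genes had a parental change beyond 0.5, among them Srgn at -2.46 (adjusted p = 0.502), so a change of such a size in a single gene could go uncalled. The 5 genes with the smallest p were Slc1a6 (0.93), Dab2 (-1.36), Gm4961 (0.57), Kcnq5 (0.83) and Foxa3 (0.67). Slc1a6, a glutamate transporter, read -1.20 and -1.45 in rtTA without Dox and -0.45 and -0.35 with Dox, and in rtTA-Dmrt5 0.47 and 0.47, then 0.86 and 0.70. Its change was thus upward in both lines by the values (0.31 in rtTA-Dmrt5), and the difference of -0.62 ± 0.16 did not pass.

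Since 0 of 18193 genes passed in rtTA, no member of the gene lists that report stress or damage could pass there. Their parental changes are given as values only. The 10 genes of mitochondrial protein quality control, chaperones and proteases that answer misfolding in mitochondria, had a median parental change of 0.08 within -0.12 and 0.23. The 16 genes of the integrated stress response, among them Atf4 (0.02) and Ddit3 (0.01), had a median of 0.01 and a highest value of 0.40. The 8 genes of cell death and p53 had a median of 0.04, with Cdkn1a at 0.21 and Mdm2 at 0.01. In the difference between lines, 1 member of these 3 lists passed: Cth, an enzyme of cysteine synthesis, at 1.12 ± 0.24 (adjusted p = 0.0436), which lost the call without any 1 of 7 arrays, all but rtTA-Dmrt5 +Dox array 1 (up to 0.155). When arrays were shifted to equal hybridisation spike-ins, 72 genes passed in rtTA, 68 higher and 4 lower. Of the members of the 29 lists together, 359 were measured and 76 passed in the difference between lines. In rtTA 0 of the 359 passed, as did 0 of all genes. Of all genes 2.84% passed in that difference, and the lists were chosen with earlier results of these data known.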

How the data were processed

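Affymetrix arrays measured the RNA of 12 samples of differentiated ES cells. According to the protocols in the labels, 5 ng of DNase-treated total RNA was amplified and biotin-labelled with a NuGEN Ovation kit. Per the submitters' processing notes the authors ran RMA, in a version those notes do not name. The values they deposited are taken as log2, since RMA is defined on that scale and the largest range of a probe set, 7.37, is too wide for log10. Each probe set's median over the 12 arrays is 0, a centring no source mentions. The array medians lay between -0.01 and 0.01, and larger values are assumed to mean more RNA. Scanner files were not analysed here.

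The platform's annotation named the probe sets: 34945 had 1 gene symbol, 932 several and 9160 none, besides 64 controls. Gene numbers of 34741 were found in RefSeq for GRCm38.p6, and 0 symbols changed. The spacing of the single-precision values gave each probe set's level class, read rightly for 97.6% of 20000 simulated probe sets. Each of 18193 genes was the mean of its 1-symbol probe sets in its highest class, with no filter on dim genes. limma 3.58.1 in R 4.3.3 fitted a mean for each of 6 groups over all 12 arrays (6 residual and 3.59 prior degrees of freedom), with eBayes and Benjamini-Hochberg adjustment in each of 3 comparisons. Simulated data for the difference between lines, on 18193 genes, recovered 64 of 100 genes given a true log2 change of 1, 92 of 100 given 2, and called 15 of 17993 unchanged genes. Python 3.11.15, pandas 2.3.3 and matplotlib 3.10.9 did the rest.

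Named were Dmrta2, the 15 most negative and 15 most positive genes that passed with separate replicates, the 6 that passed with the largest parental change, the 5 smallest parental p-values and list members that passed. The 29 lists hold 382 genes, of which 359 were measured, share some genes, and, like the comparison itself, were chosen with earlier results of these data known. Lists are described by counts and medians, with no set test. In fits without 1 array the lone array of a group is assumed to vary like the other groups.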

Additional observations from a re-analysis of the deposited data

Results flagged for a closer look

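The comparison of the report is itself a difference between lines under the same contrast, and 516 genes passed its test. In 192 of them the arrays labelled +Dox and -Dox also separated in both lines, in opposite directions, which was so in 10.9% of all genes. Passing a test of the difference favours genes whose rtTA arrays moved the other way. The comparison with all genes therefore tests nothing about a response in rtTA.

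Among the named genes this held for 22. With the rtTA-Dmrt5 change downward and the rtTA values upward, the differences between lines on the log2 scale were -3.96 in Nr2e1, -3.40 in Gm20083, -3.02 in A2m, -2.65 in Otx1, -2.18 in Rspo3 and -1.73 in Dmrt1. They were smaller in Tfap2b (-1.34), Gad2 (-1.15), Pax7 (-1.13), Ina (-1.02), Stmn2 (-0.85) and Boc (-0.69). With the opposite order they were 3.27 in Srgn, 3.16 in Wnt1, 3.06 in Foxc2, 1.99 in Hoxb5os, 1.85 in Dab2, 1.31 in Meox1, 1.13 in F3, 1.04 in Eya1, 0.89 in Notum and 0.83 in Fgf15. The parental change of none of these genes passed by itself, and groups of 2 arrays separate easily.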

How the results depend on the processing

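All 516 genes kept their direction in the other fits made per gene in which they were measured. In those fits no named gene turned its direction in the difference between lines either. For probe sets tested one by one, only the probe set with the smallest p of each named gene was compared. Other probe sets had the opposite sign in some named genes, such as 0.26 in Six3 and -0.29 in Slc1a3. For the 516 genes the fits without 1 array could not turn the direction, since their array pairs separate. In rtTA-Dmrt5 alone, the split of 561 higher and 701 lower genes turned to 2853 and 299 with the spike-in shift, 1206 and 1149 with array quality weights and 446 and 428 at a level class of at least 8. The number past the threshold was 427 with the 8 day 7 arrays alone, 446 with all probe sets of a gene averaged, 722 and 459 among genes of a level class of at least 4 and 8, 707 with array quality weights, 483 with a robust variance prior, 378 with the spike-in shift and 521 with median centring. Tested one by one, 468 probe sets passed. Leaving out 1 array gave 213 to 387 genes, of which 205 to 317 were among the 516. In rtTA the count of 0 became 72 with the spike-in shift, 68 of them higher, and 0 to 1 without 1 array, the 1 being lower without rtTA -Dox array 2. In rtTA-Dmrt5 the 1262 became 2355 with array quality weights, 3152 with the spike-in shift and 515 to 1222 without 1 array. Of 1868 values of named genes under other settings, 360 lost the call and 1 gained it, Kcnq5 without rtTA +Dox array 1. Averaging all probe sets took the call from Gad2, Slit2, Elavl3, Neurod4, Ebf2, Pax7, Eya1 and Boc, and the 8 day 7 arrays alone from 22 named genes, among them Srgn, Nepn, Islr, Hoxb5os, F3, Dmrt3, Isl1, Gbx2 and Aldh1a2. Besides the genes whose ranges the report gives, probe sets disagreed in Lhx9 (-2.12 to -0.80), Ebf1 (-1.65 to 0.13), Rspo2 (-1.71 to -0.25), Col1a2 (-1.35 to 0.22), Eya1 (-0.14 to 1.04) and Boc (-0.77 to 0.03). Further examples were Nr2f2 (-1.275 to -0.242), Neurod4 (-1.36 to -0.46), Id4 (0.26 to 1.10) and Slit2 (-0.87 to -0.32), and these are not all. Counts within lists, mostly of a few genes, moved by over 1.5 times in 167 of 522 cases. Where the cause of a change is not the smaller number of arrays or genes, the cause was not tested. With 2 arrays per group, no raw signals and only rough level classes, changes of dim genes are the least sure.

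Replicate numbers are shared by the groups, and a block for them was fitted. Over the 6 pairs of day 7 groups the deviations of same-numbered arrays correlated between -0.05 and 0.19, highest between the 2 +Dox groups. Correlations over all genes cannot exclude a pairing that touches only some genes, and the labels do not say whether the numbers pair the samples. The block within line and day gave 321 genes in the difference between lines, 1 in rtTA and 911 in rtTA-Dmrt5, and the block shared by all groups gave 476, 0 and 1133. The block within line and day took the call from 27 named genes: Dmrta2, Hoxb5os, Meox1, Dmrt3, Emx2, Lhx9, Six3, Maf, Isl1, Fgf15, Gbx2, Slit2, Dlk1, Olig1, Olig2, Tubb3, Elavl3, Neurod4, Ebf2, Col1a2, Wif1, Sfrp2, Gli1, Boc, Id4, Aldh1a2 and Cth. The shared block took it from Emx2, Lhx9, Six3, Elavl3, Zfp42, Gli1, Id4 and Cth. The counts within 12 and 4 of the 29 lists moved by over 1.5 times under these blocks.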

Other observations

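Several groups of genes not described so far had 0.0% to 18.2% of members past the threshold in the difference between lines. By limma's adjusted p, 2.84% of all genes passed. Of 16 Notch pathway genes only Lfng, a sugar transferase that tunes Notch receptors, passed (1.09 ± 0.15, adjusted p = 0.00438). It read 0.01, 0.09, 0.02 and -0.04 in rtTA, -0.42 and -0.53 in rtTA-Dmrt5 without Dox and 0.61 and 0.51 with Dox. The Notch targets Hes1 (0.81 ± 0.21) and Hes5 (0.18 ± 0.23) and the ligand Dll1 (0.03 ± 0.26) did not pass. Of 12 Bmp targets only Id4 passed (0.68 ± 0.14), and Id1 (-0.46 ± 0.21) and Id2 (-0.73 ± 0.17) had values of the other sign. Id4 lost the call without any 1 of 7 arrays, all but rtTA +Dox array 1 (adjusted p up to 0.127), and with the spike-in shift.

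Egr2, which marks hindbrain segments, is dim, with a median log2 level of 2 to 4. Of 13 hindbrain and Hox genes only Egr2 passed (1.15 ± 0.20). The Hox genes did not, from Hoxa2 at -0.92 ± 0.24 to Hoxb1 at 1.23 ± 0.36, and Hoxb5 had a difference of 0.01 ± 0.38 beside 1.99 in Hoxb5os. Egr2 lost the call without any 1 of 4 arrays (adjusted p up to 0.0797). Of 11 genes of dopaminergic neurons, Dlk1 was more positive (1.06 ± 0.18), with probe sets at 0.02 and 2.11, and Th more negative, while Nr4a2 (0.05 ± 0.16) and Pitx3 (-0.13 ± 0.19), which define these neurons, did not pass. Dlk1 lost the call without rtTA -Dox array 2, rtTA-Dmrt5 -Dox array 2 or rtTA-Dmrt5 +Dox array 1 (adjusted p up to 0.0625). All 16 cell cycle genes had a difference above 0, from 0.02 to 0.50 with a median of 0.24, and 0 passed. Their mean was 0.24 and 0.27 in rtTA without Dox, 0.16 and 0.20 with Dox, -0.14 and -0.15 in rtTA-Dmrt5 without Dox and 0.02 and 0.05 with Dox.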
